A study of Mus musculus with 28 samples.

Results

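The exons described here are the 587 exons of 300 bp or less among the 1258 exons that the study listed as differently used between *Ssrp1* knock-down (KD) and control mouse embryonic stem cells (mESCs). They were taken by length alone, without a further threshold, and lie in 412 host genes. The longest were *Gm20033* and *Rwdd4a* with 299 bp, and the shortest listed exons left out were those of *Asb1* and *Emg1* with 303 bp. Because the list itself was made by comparing KD with control, its membership is no finding, and the direction of exon use is not given here. All 412 host genes had a gene-level value. Of the short exons, 579 belonged to protein-coding genes, 6 to non-coding RNA genes, and 1 each to a pseudogene and a gene of unknown type.

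The cells were E14, a mouse ES cell line grown with leukaemia inhibitory factor. Both groups received lentiviral shRNA vectors, a scramble sequence in the control group and a mixture of 2 shRNAs against *Ssrp1* in the KD group, and were selected with puromycin at 2 μg/ml for the last 24 h before collection. RNA was depleted of ribosomal RNA, spike-in RNA was added, and there were 4 biological replicates of each group. Binding of SSRP1 and SUPT16 was read from 1 peak list per subunit, called on 2 replicates of E14 cells together, and RNA of the chromatin fraction from 2 libraries. Which RNA libraries entered the exon list, those with spike-ins or a second set without, is not stated, and exon counts per library were not analysed here.

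An internal exon is recognised by the splicing machinery through the acceptor site before it and the donor site after it, and an exon that some transcripts leave out is called a cassette exon. A first exon instead begins at a promoter, so a change in its use can reflect the choice of a start site as well as splicing. An internal exon whose length is a multiple of 3 can be skipped without a shift of the reading frame. FACT, the heterodimer of SSRP1 and SUPT16, is a histone chaperone that loosens and restores nucleosomes as RNA polymerase II passes.

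To show the kinds of exon in the list, sequences of the GRCm38 (mm10) assembly from RefSeq follow, 5′ to 3′ on the strand of the gene, with the exon in capitals between 20 intron bases before it and 10 after it. The first set is the pair of alternative exons of *Tpm1*, the gene of an actin-binding tropomyosin. Both were listed, at chr9:67048124-67048249 and chr9:67047786-67047911 on the minus strand. Exon 2 was present in 1 of 10 curated transcripts and exon 3 in 5.
Tpm1 exon 2: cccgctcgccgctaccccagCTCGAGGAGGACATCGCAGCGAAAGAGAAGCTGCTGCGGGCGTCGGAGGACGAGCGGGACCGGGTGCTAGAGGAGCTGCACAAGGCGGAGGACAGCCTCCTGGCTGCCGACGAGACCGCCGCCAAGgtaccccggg
Tpm1 exon 3: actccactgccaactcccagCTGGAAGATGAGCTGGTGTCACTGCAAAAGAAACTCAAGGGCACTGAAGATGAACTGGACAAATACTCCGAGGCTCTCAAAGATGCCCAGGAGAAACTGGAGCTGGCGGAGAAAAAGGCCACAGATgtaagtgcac
Both *Tpm1* exons are coding and 126 bp long, so the exchange of one for the other keeps the frame, although only 60 of the 126 positions (47.6%) are identical. Their GC content also differed, at 68.3% for exon 2 and 50.0% for exon 3.

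The next set is the exchangeable pair of *Pkm*, which encodes the glycolytic enzyme pyruvate kinase. Exon 9, at chr9:59675029-59675195 on the plus strand, was listed and exon 10, at chr9:59675568-59675734, was not. Of 11 curated transcripts, 6 contain exon 9 and 5 contain exon 10.
Pkm exon 9: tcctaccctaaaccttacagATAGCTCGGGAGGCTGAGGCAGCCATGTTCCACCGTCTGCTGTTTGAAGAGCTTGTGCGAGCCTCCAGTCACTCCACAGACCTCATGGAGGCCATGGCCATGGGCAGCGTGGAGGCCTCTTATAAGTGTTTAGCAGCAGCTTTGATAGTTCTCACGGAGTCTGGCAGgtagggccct
Pkm exon 10: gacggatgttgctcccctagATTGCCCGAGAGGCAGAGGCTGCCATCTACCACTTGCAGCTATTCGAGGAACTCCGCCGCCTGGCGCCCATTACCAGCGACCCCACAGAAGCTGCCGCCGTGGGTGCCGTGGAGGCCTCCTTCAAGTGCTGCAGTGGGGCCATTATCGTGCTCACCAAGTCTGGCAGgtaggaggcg
The *Pkm* exons share 103 of 167 positions (61.7%), and both are followed by gtagg at the donor site.

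The last set is the 5 shortest members that were internal and fully coding. They lie at chr10:128548658-128548680 on the minus strand (*Rpl41*), chr8:43190069-43190091 on the plus strand (*Triml2*), chr7:13029088-13029124 and chr7:13029207-13029252 on the plus strand (*Trim28*), and chr8:105849013-105849055 on the minus strand (*Cenpt*).
Rpl41 exon 3: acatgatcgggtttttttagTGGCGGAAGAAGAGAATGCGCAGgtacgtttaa
Triml2 exon 5: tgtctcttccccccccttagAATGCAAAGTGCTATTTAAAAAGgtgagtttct
Trim28 exon 10: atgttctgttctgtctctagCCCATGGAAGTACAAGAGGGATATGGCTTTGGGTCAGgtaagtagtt
Cenpt exon 6: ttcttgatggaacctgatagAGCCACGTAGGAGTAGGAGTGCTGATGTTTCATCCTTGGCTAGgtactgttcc
Trim28 exon 11: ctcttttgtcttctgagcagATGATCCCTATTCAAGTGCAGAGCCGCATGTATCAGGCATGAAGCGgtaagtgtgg
These run from 23 to 46 bp, and none is skipped by a curated transcript. *Rpl41*, a ribosomal protein gene, also holds a listed exon of 25 bp, and the shortest first exon among the members is that of *Hyal3*, a hyaluronidase family gene, with 41 bp. *Trim28*, a co-repressor of retroelements, contributed the neighbouring exons 10 and 11 of 17.

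The short exons had a median length of 150 bp (quartiles 108.5 and 194 bp), against 122 bp for the 144288 exons of 300 bp or less that were not listed in genes with a value. These unlisted exons were not filtered by reads, so they include exons with too few reads to be listed. Longer exons and exons of genes with higher values gather more reads. What part this has in the differences from unlisted exons given below was not tested. By position, 444 of 587 were internal (75.6%, 95% Wilson interval 72.0 to 78.9%, counting error only), 121 were first exons (20.6%), and 22 were last exons (3.75%). Among the unlisted short exons of all genes, 91.5% were internal and 7.18% were first exons. Among the 5083 unlisted short exons of the same host genes, 94.7% were internal and 4.54% were first exons. First exons thus took a larger share of the listed exons than of the other short exons in the same genes. The 671 listed exons over 300 bp were mostly last exons (57.4%), with 24.6% internal. Taking 1 short exon per host gene, the one nearest the start, lowered the internal share to 68.7%, and no count here was tested, because exons of 1 gene are not independent.

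**Figure D1:**
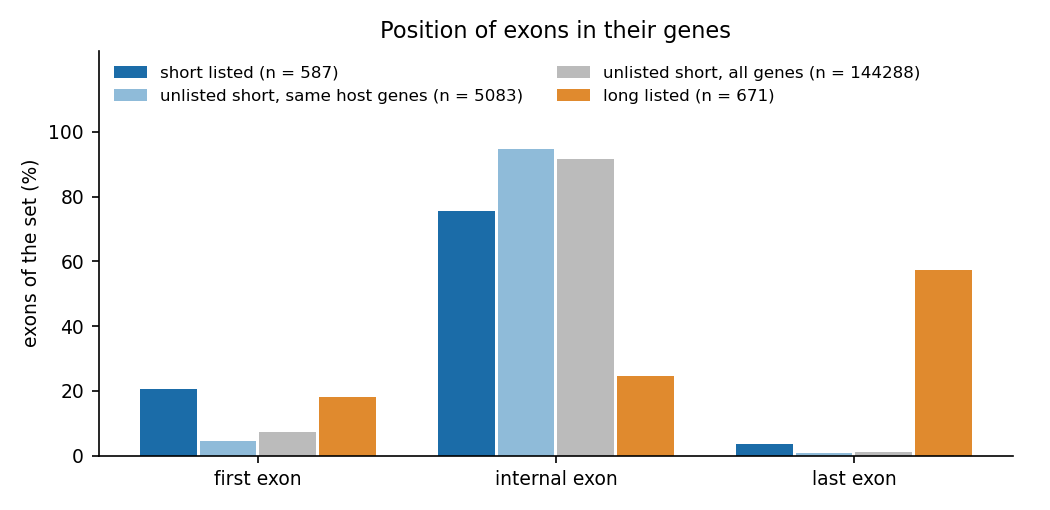
Share of exons (y axis, percent of the set) that are first, internal or last in their gene, for the short listed exons, the unlisted short exons of the same host genes, the unlisted short exons of all genes, and the long listed exons. The short listed exons hold 20.6% first exons against 4.54% for the other short exons of the same genes, and the long listed exons are mostly last exons.

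Of the 444 internal short exons, 39 (8.78%) were skipped by at least 1 curated RefSeq transcript of their gene, against 4.07% of unlisted internal short exons in all genes and 4.51% in the host genes. These 39 exons lie in 34 genes. Among them, 23 in 21 genes were never the first exon of a transcript, as holds for cassette and exchangeable exons. Last exons of a transcript were not set apart, and 4 internal members (0.90%) were the last exon of a curated transcript. These 23 exons measured 69 to 296 bp, and the length of 13 of the 23 (56.5%) was divisible by 3, a share not taken for unlisted exons of this kind. Of all 39 skipped members, 17 (43.6%) had such a length. Among skipped unlisted internal short exons the share was 50.4% in all genes and 53.5% in the host genes. The 23 exons include one of 159 bp in *Hnrnpa1*, an abundant RNA-binding protein that itself regulates splicing, which 2 of 3 transcripts skip. *Rsrc2*, a serine- and arginine-rich protein gene, contributed an exon of 78 bp that 5 of 15 transcripts skip. *G3bp2*, a stress-granule protein gene, contributed exon 9 of 99 bp, which 3 of 8 transcripts skip. *Brd7*, a bromodomain gene of the SWI/SNF complex, contributed an exon of 112 bp, which 3 of 9 skip. *Lifr*, the receptor of leukaemia inhibitory factor, contributed exon 18 of 277 bp, which 2 of 3 transcripts skip. *Itga6*, an integrin subunit, contributed exon 25 of 26, present in 1 of 2 transcripts.

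Lengths divisible by 3 made up 150 of the 444 internal short exons (33.8%, interval 29.5 to 38.3%), against 39.8% of the unlisted internal short exons and 40.2% of those in the host genes. Among internal members within coding sequence the share was 35.7% (136 of 381), against 40.3% in all genes. The list was thus not richer in frame-keeping exons than the rest of the annotation. Most internal members, 405 of 444, were skipped by no curated transcript.

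A further 21 internal short exons, in 20 genes, were the first exon of at least 1 curated transcript, that is, they begin at a start site inside the gene (4.73% of internal members, against 0.940% of unlisted internal short exons and 1.23% in the host genes). Together with the first exons of genes, 142 of 587 members (24.2%) were the first exon of the gene annotation or of a curated transcript, against 8.04% and 5.71%. Not every first exon of a gene begins a curated transcript, as in *Hdac4*. The sequence before the exon followed the annotation, since a first exon has no acceptor site. The AG that ends an intron was present before 426 of 444 internal members (95.9%), against 99.1% and 98.9%. Of the 18 members without it, 17 (94.4%) were such first exons. Among unlisted exons without AG the share was 76.9% in all genes and 81.5% in the host genes. Exon 4 of *Tpm1*, with 294 bp, begins 4 of its 10 transcripts, and exon 3 of *Rbfox2*, with 283 bp, begins 7 of 12. *Rbfox2* encodes an RNA-binding regulator of splicing, and its exon 11 of 145 bp, the 1 exon without AG that was no first exon, was listed too. *Eif5a*, a translation factor, held 2 such exons, of 224 and 290 bp, and *Tgif1*, a homeodomain repressor, *Uba1*, the ubiquitin-activating enzyme, and *Lsm2*, a component of small nuclear ribonucleoproteins, held 1 each.

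Internal members lay in a more compact setting than the background. Their median upstream intron was 1045.5 bp and the downstream intron 863 bp, against 1269 and 1176 bp for unlisted internal short exons and 1080 and 1037.5 bp in the host genes. An intron under 200 bp lay beside 32.0% of them, against 24.6% and 28.8%. The median distance from the gene start was 11595 bp, against 23364 and 26949 bp, and the median GC content 53.5%, against 51.0% and 50.9%. Pyrimidines made up a median of 76.5% of the 17 bases upstream of the acceptor in all 3 sets. The hexamer TGCATG, the core bound by RBFOX proteins, was sought on the transcript strand in the 200 bases after the exon and found for 8.56% of internal members, against 7.88% and 8.41%. TTCTCT, a pyrimidine motif, was found in the 200 bases before 16.2% of them, against 19.3% and 18.9%. The motif shares of members and background thus lay close together, and a match is a description and not a binding site.

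Most hosts, 313 of 412, held 1 short listed exon, and 99 held 2 or more, with 274 exons between them. In 178 hosts a longer exon was listed as well. A listed exon was the direct neighbour of 165 members (28.1%). The 9 genes with 5 or more held 66 of the 587 exons. *Utrn*, which encodes the dystrophin relative utrophin, held 12 among its 74 exons, all coding, from exon 19 to exon 71. *Dock6* held 11 of 50, and 8 of these 11 had a length divisible by 3. *Acly*, ATP citrate lyase, which supplies acetyl-CoA, held 8 of 29. *Kat2a*, the histone acetyltransferase GCN5, held 7 of 18, between exons 2 and 13, and its long first exon was listed too. *Ube3b*, a ubiquitin ligase, held 7 of 28, and *Gpt2*, a mitochondrial alanine transaminase, 6 of 12. *Tpm1* held 5 of 15, *Mcm3ap*, a gene of mRNA export, 5 of 29, and *Ctsa*, a lysosomal carboxypeptidase, 5 of 16. In *Tpm1* the first 4 exons were all listed, the longest unbroken run of short listed exons among these genes. In *Utrn* the members were spread over much of the gene, with runs of at most 3. In *Dock6* they ran from exon 6 to exon 46 but lay closer together from exon 36 on, with unbroken runs at exons 36 to 38 and 44 to 46.

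**Figure D2:**
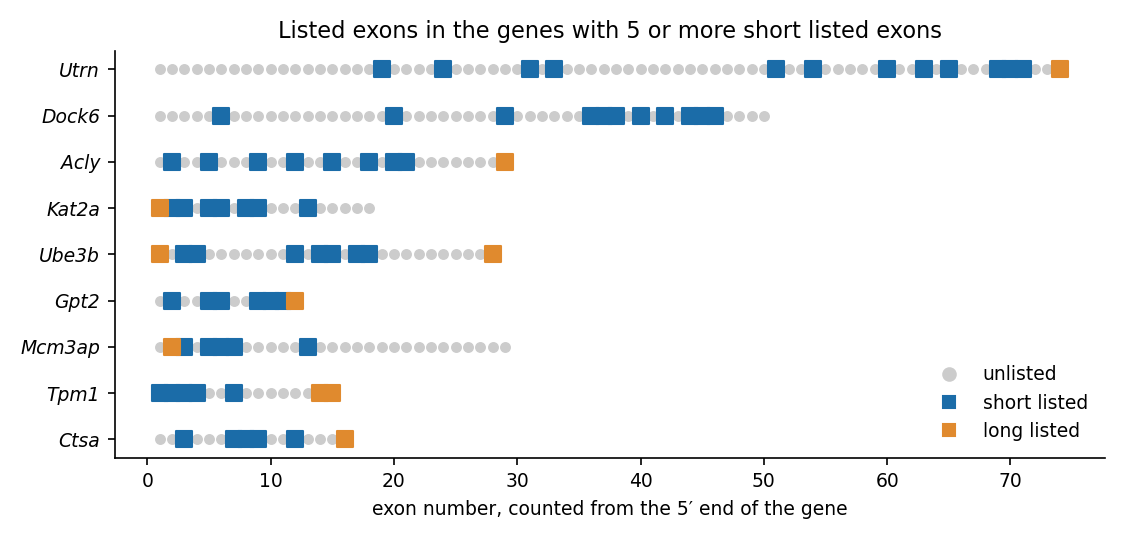
Exons of the 9 genes with 5 or more short listed exons, placed by exon number from the 5′ end (x axis), with short listed exons as blue squares, long listed exons as orange squares and unlisted exons as grey points. The 12 exons of *Utrn* begin at exon 19 of 74, whereas the first 4 exons of *Tpm1* are all listed.

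SSRP1 peaks lay over 83 of the 587 short exons (14.1%, interval 11.6 to 17.2%), in 70 genes, against 2.19% of unlisted short exons in all genes, 3.29% in the host genes and 11.6% of the long listed exons. SUPT16 peaks lay over 42 (7.16%), against 1.01% and 1.44%. Both subunits had a peak over 31 exons, and 11 were under a SUPT16 peak only. Of the 83 exons, 60 lay within 1000 bp of the gene start and 44 were first exons. Position therefore moves with the overlap, and the shares were set side by side within classes of position. Among first exons, 36.4% of members were under a SSRP1 peak, against 27.3% of the unlisted short first exons of the host genes and 16.4% of those of all genes. Among exons that were not first but began within 1000 bp of the start, the shares were 30.2%, 26.2% and 13.4%. From 1000 to 5000 bp they were 11.9%, 6.05% and 2.36%, and beyond 20000 bp 3.93% (7 of 178), 0.899% and 0.274%. For SSRP1, members had the highest share of the 3 sets in each of these classes, and in relative terms the difference from the other exons of the host genes was smallest within 1000 bp of the start. For SUPT16 the shares of members and of the host genes' other short exons lay close together near the start, at 19.01% and 17.3% for first exons and 11.3% and 11.5% for other exons within 1000 bp. Farther out members had the higher SUPT16 share, with 8.26% (9 of 109) and 2.73% from 1000 to 5000 bp. From 5000 to 20000 bp the shares were 2.38% (3 of 126) and 0.151%, and beyond that 0.562% (1 of 178) and 0.104%.

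**Figure D3:**
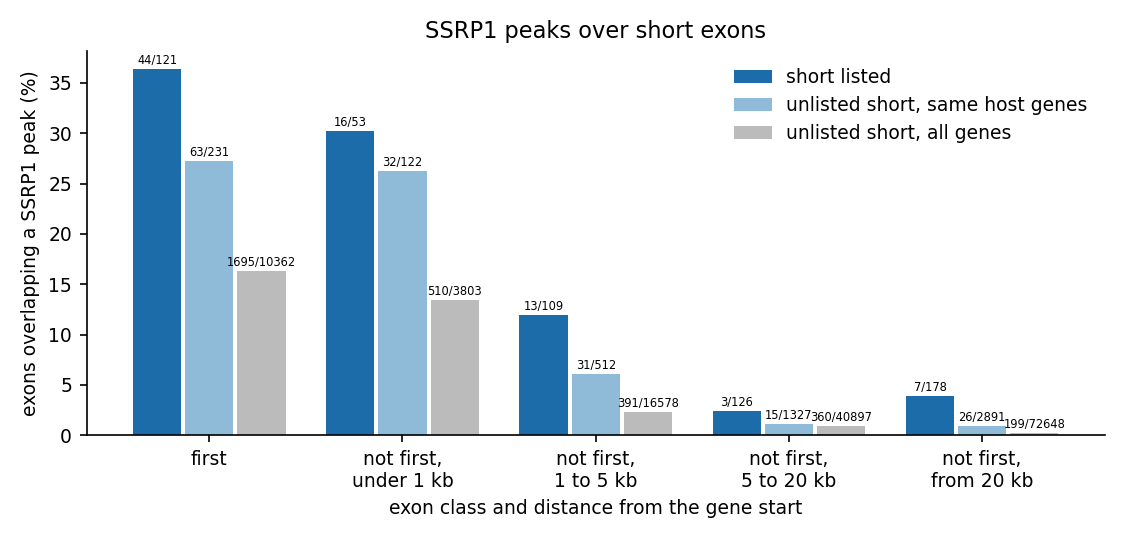
Share of short exons overlapped by a SSRP1 peak (y axis, percent) by exon class and distance from the gene start (x axis), for listed exons, unlisted exons of the same host genes, and unlisted exons of all genes, with the counts above the bars. Overlap is highest among first exons and lowest beyond 5000 bp in every set, with 36.4% of listed first exons and 2.38% of listed exons between 5000 and 20000 bp.

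Exons that start a transcript inside a gene were among those bound. SSRP1 peaks lay over 6 of the 21 (28.6%), those of *Tpm1*, *Rbfox2*, *Eif5a*, *Tgif1*, *Rnf44* and *Snx5*, against 16 of 59 unlisted ones in host genes (27.1%) and 10.4% in all genes. In *Tpm1* the peak at chr9:67043564-67043858 covered 281 of the 294 bases of exon 4, while exons 1 to 3 had none. In *Rbfox2* the peak at chr15:77153440-77153734 covered 205 of the 283 bases of exon 3, which lies 153241 bp from the start of the gene.

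The other internal exons under a SSRP1 peak numbered 27 of 423 (6.38%), against 1.72% in the host genes. Of these 27, 11 belonged to ribosomal protein genes. Over all positions, of the 31 members in the 15 ribosomal protein hosts, 15 exons in 8 genes were under a SSRP1 peak, and without these genes the share over all members was 12.2% (68 of 556). *Rps18* had exons 3 and 4 under the peak at chr17:33950140-33953178, and *Rpl36* its exons 2 and 3 under chr17:56613130-56616266. Far from the start of its own gene, at 24959 and 27915 bp, *Mybl2*, a cell-cycle transcription factor, had exons 11 and 13 under separate peaks, the second at chr2:163082290-163088562 and so reaching past the end of the gene. *Zmynd8*, a reader of histone marks, had exons 13 and 15 under peaks at 51327 and 64063 bp from its start, the latter also under SUPT16. *Acy1*, an aminoacylase, had its 80-bp exon 13 wholly under peaks of both subunits.

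First exons under peaks of both subunits numbered 17. Taken in alphabetical order, since their distances tie at 0, they open with those of *4931406C07Rik*, *Bcdin3d*, *Ccdc97*, *Ddah2* and *Dtl*. The exon of *4931406C07Rik* also overlaps an exon of a gene on the other strand, one of 4 members of this kind, and 1 further member overlaps a gene on its own strand. The others include *Mdm2*, the ubiquitin ligase of p53, *Ino80*, the ATPase of a chromatin remodeller, and *Mtf2*, a partner of the Polycomb repressive complex. Peaks of SSRP1 covered the 165 bases of the first exon of *Mdm2* (peak at chr10:117710152-117710740) and the 292 bases of that of *Mtf2* in full.

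By the nearest-gene assignment, 234 of the 412 host genes (56.8%, interval 52.0 to 61.5%) carried a SSRP1 peak and 131 (31.8%) a SUPT16 peak, against 36.02% and 18.6% of all 15384 genes with a value. Hosts also had higher gene values, not divided by gene length, with a control median of 64.1 against 22.2 for all genes. When all genes were ranked by control value into 4 classes of 3846, 243 of the hosts lay in the top class. Within that class 60.1% of hosts and 50.1% of all genes carried a SSRP1 peak. In the next classes down, the shares were 50.5% against 38.9% and 56.3% against 31.0%, and in the lowest, with 14 hosts, 50.0% against 24.0%. The shares thus stood closest in the top class. In genes that held long listed exons only, 51.6% carried a SSRP1 peak. The definition of a bound gene weighed heavily, and the share of hosts was 32.8% with peaks of at least 500 bp (17.6% of all genes) and 25.7% with peaks of both subunits (12.7%).

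The gene level was then compared between the 4 KD and the 4 control libraries, in deposited values scaled to library size. The test was limma on log2(value + 0.5) over all 15384 genes, a scale that understates the change of low genes, and a gene was called at an absolute log2 fold change above 1 with a Benjamini-Hochberg adjusted p below 0.01. The reads behind these values ran from 4602278 to 6680919 in the control and from 9433193 to 19856032 in the KD libraries. The authors' library-size factor did not bring the libraries to equal totals. The values summed to 825584 to 909417 per control library and to 1.14e+06 to 1.18e+06 per KD library. At equal totals each log2 fold change would be lower, and calls at equal totals were not taken. *Ssrp1* itself checked the groups. The 4 control libraries stood at 261, 229.8, 223 and 226, and the 4 KD libraries at 24.1, 26.4, 24.9 and 28.9, a log2 fold change of -3.15 (SE 0.069, adjusted p = 1.18e-22). Genes that mark pluripotent cells were present in every library, from 94.7 for *Esrrb* to 685 for *Pou5f1*, the gene of Oct4. Their values were higher in KD, with log2 fold changes from 0.83 (*Esrrb*) to 1.28 (*Sox2*).

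Of the 412 host genes, 113 were called higher in KD (27.4%), where 8.07% of all genes were, and 21 were called lower (5.10%), where 20.6% of all genes were. The groups did not overlap in any of these 134 genes, which were called from the same libraries. Among all 412 hosts, called or not, the groups did not overlap in 347, and the count over all genes was not taken. In bulk libraries, fewer cells that express a gene and less RNA per cell cannot be told apart. The median log2 fold change of the hosts was 0.44, against -0.03 for all genes. Of the 412 hosts, 285 had a value above 0, whereas the median of all genes lay just below 0. Genes with long listed exons only were called higher in 14.03% and lower in 15.8%, with a median of 0.04. Control level moved with these shares. In the top class of control value, 26.3% of hosts and 11.6% of all genes were higher, and 4.94% and 4.26% were lower. In the class below it 29.9% and 8.74% were higher, and 6.54% and 11.6% lower. Hosts with a SSRP1 peak were higher in 32.1% (75 of 234) and hosts without one in 21.3% (38 of 178), where 10.0% and 6.99% of all genes with and without a peak were. Members were listed from the same contrast, in which reads per exon were compared, and the part of gene level in the listing was not tested.

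The scaling decided much of this split. With quantile normalisation 45 hosts were higher (10.9%, against 9.87% of all genes) and 38 were lower (9.22%, against 10.8%), and 38 of the 113 higher hosts stayed among them, as did 20 of the 21 lower ones. Scaling to the spike-ins raised the median of all genes to a log2 fold change of 0.95. In that setting 285 hosts were higher (69.2%, against 48.1% of all genes) and 1 was lower (0.24%, against 7.03%). Relative to that median, 130 hosts lay more than 1 above and 18 more than 1 below, counts that were not taken over all genes.

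**Figure D4:**
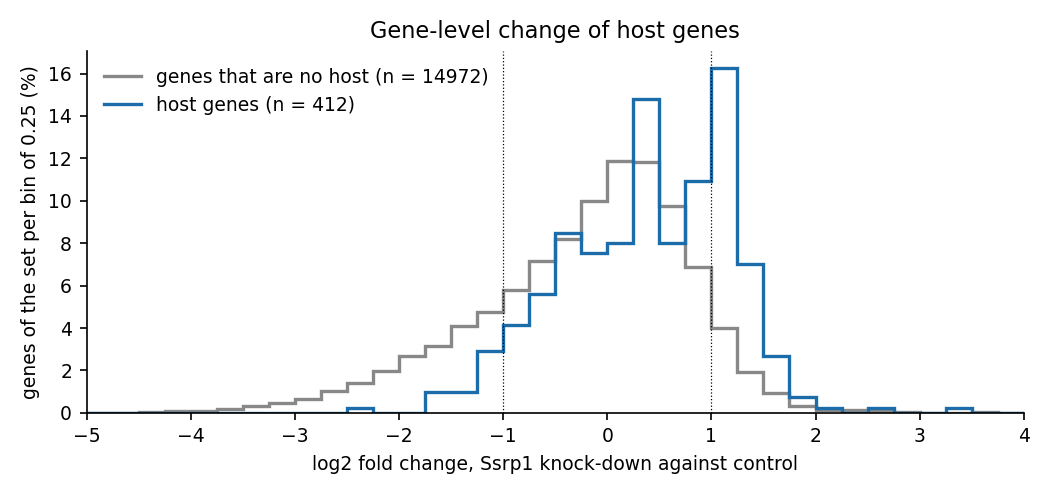
Distribution of gene-level log2 fold change, KD against control (x axis), as percent of genes per bin of 0.25 (y axis), for the 412 host genes and the 14972 genes that are no host, in values scaled to library size. Dotted lines mark the fold threshold, and the host curve is shifted to higher values, with a median of 0.44 against -0.05 and a peak of 16.3% of hosts between 1 and 1.25. The axis leaves out values below -5.

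Among the hosts, *Pdk1*, a kinase that restrains pyruvate dehydrogenase, rose most. Its values were 37.8, 37.7, 27.1 and 26.9 in control and 340.3, 331, 327 and 317 in KD, with a log2 fold change of 3.34 (SE 0.086, adjusted p = 1.08e-21), so the groups lay far apart. Its listed exon is number 9 of 11, with 111 bp, and its last exon was listed too. *Psmb6*, a catalytic subunit of the proteasome, stood at 60.0, 49.4, 47.4 and 53.5 in control and 302, 299.8, 324 and 286 in KD (log2 fold change 2.52, SE 0.067, adjusted p = 1.86e-21), and its listed exon is the first. *Ddah2*, which breaks down methylarginines, stood at 16.5, 15.1, 13.3 and 13.95 in control and 68.7, 58.3, 60.5 and 56.8 in KD (2.02, SE 0.089). Its first exon is the listed one and lay under peaks of both subunits. *Qtrt1*, which inserts queuosine into tRNA, rose by a log2 fold change of 1.93, and *Rpl22l1*, a ribosomal protein paralogue, by 1.86.

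The largest fall was that of *Mvb12b*, a subunit of an endosomal sorting complex, from 10.5, 16.5, 14.5 and 14.1 in control to 2.72, 2.23, 2.202 and 2.15 in KD (log2 fold change -2.34, SE 0.175, adjusted p = 2.16e-12). *Bbs7*, of the ciliary BBSome, stood at 57.3, 48.4, 44.8 and 49.6 in control and 14.3, 15.4, 15.9 and 14.3 in KD (-1.70, SE 0.090). *Slc29a4*, a membrane transporter, fell by 1.62 and *Csnk1g1*, a casein kinase, by 1.61. *Mdm2* stood at 714, 587, 563 and 669 in control and 217, 215, 219 and 230.1 in KD (-1.52, SE 0.065, adjusted p = 2.08e-17). Its exons 1 and 2, both untranslated, were the listed ones, and exon 1 lay under peaks of both subunits. These 10 hosts kept their direction with quantile and spike-in scaling, and the 5 rises were called in each. With spike-in scaling, however, *Bbs7* (-0.70), *Slc29a4* (-0.63), *Csnk1g1* (-0.60) and *Mdm2* (-0.49) were no longer called, beside a median of all genes of 0.95.

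**Figure D5:**
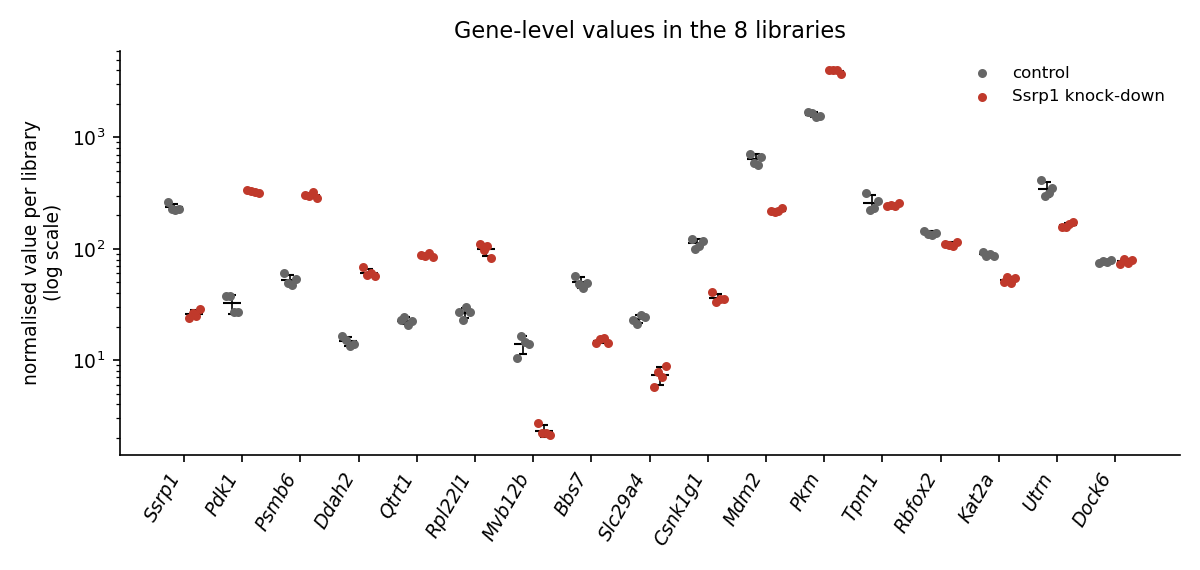
Gene-level values scaled to library size (y axis, log scale) in the 4 control (grey) and 4 KD (red) libraries for *Ssrp1*, the 5 hosts with the largest rise, the 5 with the largest fall, and 6 hosts described for their exons, with bars for mean and SD. *Pdk1* stands near 30 in control and above 300 in KD, whereas the groups overlap for *Tpm1* and *Dock6*.

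The genes with the most, or the best known, alternative exons did not share a gene-level direction. *Tpm1* stood at 315, 223, 232 and 270.3 in control and 242, 247, 243 and 258 in KD, so the groups overlapped (log2 fold change -0.06, adjusted p = 0.47). *Dock6* stood at 74.1, 76.9, 76.1 and 79.5 against 73.0, 80.8, 74.5 and 79.7, again overlapping (0.01, adjusted p = 0.93). Thus *Tpm1* and *Dock6* showed gene-level differences within the spread of the libraries.
*Utrn* stood at 416, 299, 314 and 348 in control and 158, 156, 168 and 173 in KD (-1.06, SE 0.073), and without control replicate 1 the value was -0.96, no longer past the fold threshold. *Acly*, *Gpt2* and *Ctsa* were higher by log2 fold changes of 1.04, 1.03 and 1.15, but none was called with quantile normalisation (0.41, 0.68 and 0.91). *Kat2a* was at 88.9 ± 3.70 in control and 52.4 ± 3.17 in KD (SD, n = 4), a log2 fold change of -0.76 that did not reach the fold threshold, and *Ube3b* and *Mcm3ap* had values of -0.77 and -0.57. With quantile normalisation these 3 were called lower.

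*Pkm* stood at 1704, 1644, 1524 and 1549 in control and 3997, 3997, 4067 and 3701 in KD, and these groups did not overlap (1.30, SE 0.073, adjusted p = 7.02e-15), but it was not called with quantile normalisation (0.68). *Rbfox2* had values of 145, 136, 132 and 138 against 111, 109, 105 and 116, with no overlap and a log2 fold change of -0.32 that was not called. *Mapt*, the gene of the microtubule protein tau, held a listed exon of 133 bp, number 7 of 12, and rose by 1.54. *Dnmt3a*, a DNA methyltransferase, held one of 268 bp, number 4 of 24, and rose by 1.05, but by 0.71 with quantile normalisation, which is not a call. *Triml2* and *Rpl41*, hosts of the shortest exons, rose by 1.10 and 1.38, though not past the threshold with quantile normalisation (0.71 and 0.50), and *Trim28* had a value of 0.80, not called. *Hyal3*, with values between 1.30 and 4.51 in the 8 libraries, was lower by 1.07 on the log2 scale, but had a value of 0.11 with quantile normalisation. Of the hosts whose first exon lay under both peaks, *4931406C07Rik* (1.38) and *Dtl* (1.36), a substrate adaptor of a ubiquitin ligase, were higher, and *Bcdin3d* (0.12) and *Ccdc97* (-0.86) were not called.

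By function, hosts were grouped into lists put together from the host genes themselves. Each count in values scaled to library size thus stands beside the 27.4% of all hosts and 8.07% of all genes called higher, and the 5.10% and 20.6% called lower. For counts with quantile normalisation these shares are 10.9% and 9.87% higher, and 9.22% and 10.8% lower. All 15 ribosomal protein hosts, with 31 short exons, had a value, and 13 were higher and none lower (median log2 fold change 1.20, against -0.03 for all genes). *Rpl13a* rose by 1.67 and *Rpl22l1* by 1.86. With quantile normalisation 2 were higher. With spike-ins 14 lay more than 1 above the median of all genes, as did 130 of all 412 hosts, and the count over all genes was not taken. Ribosomal protein genes are known for many near-identical processed pseudogenes, with which the counting could have split reads, so their values are uncertain. How many reads were affected was not tested. Of 17 hosts of carbon and amino acid metabolism, 11 were higher and none lower (median 1.04), among them *Pdk1* and *Acy1* (1.70), and 4 were higher with quantile normalisation.

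Of 33 hosts of chromatin and transcription, 15 were higher and 1, the histone deacetylase *Hdac4*, was lower (median 0.89). *Polr2e*, a subunit shared by the RNA polymerases, rose by 1.38, and *Morc1*, a germline silencing factor, by 1.29. *Hdac4* fell by 1.03 and stood at -0.99 without KD replicate 3 and -0.997 without control replicate 4, not past the threshold. Quantile normalisation left 2 higher and 3 lower. Of 21 hosts of translation and mRNA stability, 7 were higher and none lower (median 0.67), with *Hbs1l*, a ribosome rescue factor (1.39), and *Exosc8*, an exosome subunit (1.17), in front. With quantile normalisation 1 was higher, the median was 0.14, and *Exosc8* was not called (0.96). Of 20 hosts of splicing and RNA binding, 7 were higher and none lower (median 0.62), led by *Larp7*, which binds 7SK RNA (1.31), and *Prpf31*, a spliceosome protein (1.25), and with quantile normalisation none was called in either direction.

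The 31 hosts of the cytoskeleton and adhesion, with 63 short exons, had a median of -0.37, the only list below 0 in values scaled to library size. Here 2 were higher, *Mapt* and *Arpc1b* (1.53), a subunit of the Arp2/3 complex, and 4 were lower. The falls were led by *Epb41l3*, a membrane-cytoskeleton linker (-1.25), and *Ablim1*, an actin-binding protein (-1.10), whose listed exon 8 begins 2 of its 9 transcripts. With quantile normalisation 2 were higher and 7 lower. Of 23 hosts of the ubiquitin and proteasome system, 5 were higher, with *Psmb6* and the ligase *Rnf138* (1.59) in front, and 1, *Mdm2*, was lower (median 0.54, but -0.04 with quantile normalisation, where 4 were higher and 4 lower). Of 18 signalling and transcription factor hosts of stem cells, 3 were higher, a smaller share than the 27.4% of all hosts, and none lower (median 0.45), with *Mybl2* (1.20) and *Nr5a2*, an orphan nuclear receptor (1.10), in front, and quantile normalisation called 1 in each direction.

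Proteins that choose splice sites were examined across all genes, hosts or not. Of 55 splicing regulators with a value, 10 were called (18.2%), where 28.6% of all genes were called in either direction. These were 5 in each direction, where 8.07% of all genes were higher and 20.6% lower. Higher were *Srpk1*, a kinase of SR proteins (1.17), *Hnrnpa1* (1.15) and *Hnrnpc* (1.08), and both subunits of the factor that reads the acceptor site, *U2af1* (1.23) and *U2af2* (1.01). *Srpk1* and *Hnrnpa1* are hosts themselves. Lower were *Nova2* (-2.95), *Celf2* (-2.81), *Nova1* (-2.04), *Srrm4* (-1.53) and *Ptbp2* (-1.12). The Nova proteins, *Srrm4* and *Ptbp2* are known as regulators of splicing in neurons. *Nova2* stood at 13.7, 18.4, 21.2 and 18.2 in control and 2.10, 1.99, 1.23 and 2.203 in KD, and *Celf2* at 16.3, 20.5, 21.3 and 15.5 against 2.35, 2.05, 2.27 and 2.03, so neither gene's groups overlapped. With quantile normalisation 1 regulator was higher and 6 were lower, where 9.87% of all genes were higher and 10.8% lower. The median of the list turned from 0.25 to -0.14. Whether any of these changes bears on the listed exons was not tested.

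RNA of the chromatin fraction, which is rich in nascent transcripts, was counted in E14 cells in 2 libraries of 3441643 and 3393923 counts. The host genes had a median of 3.78 and 7.37 CPM, not divided by gene length, against 1.45 and 2.36 CPM for all genes with a value. In library 1, 11 of the 412 hosts (2.67%) had no count, and in library 2, 5 had none, where 16.97% and 12.0% of all genes had none. Library 2 gave the higher median for both sets, and the values are per gene and do not resolve exons.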

How the data were processed

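Exons of 300 bp or less were taken from the exon list that the authors made with featureCounts and limma's diffSplice (mm10, STAR). The fold change, p-value, FDR and status columns of that list, and the authors' tables of KD and NPC comparisons, hold their own findings and were not used. Lengths are in bp. All 1258 listed exons matched the exon annotation of the deposited gene table, from which exon numbers, first, internal and last position, and background exons were taken. Transcripts were the curated RefSeq ones of GRCm38.p6.

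The RNA signal per gene is deposited by the authors as featureCounts reads (STAR 2.5.1b per the labels) divided by a library-size factor, and in a second scaling by spike-ins. All values (100%) were whole reads within 0.1 read after division by the value of 1 read, and recovered reads were used in edgeR 4.0.16 and DESeq2 1.42.0. Chromatin RNA is deposited as raw counts (STAR 2.4.1b, per the labels). The authors called peaks with PePr on both replicates together after Bowtie2 2.2.6, assigned to nearest genes, and carry no heights. An overlap was at least 1 bp.

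Genes were tested with limma 3.58.1 (R 4.3.3, trend), checked on simulated data. Shares were described, with no test. Other settings were pseudocounts of 0.1 and 2, a mean value of at least 5, spike-in, quantile and TMM scaling, edgeR, DESeq2, a replicate block, each library left out, and for shares 1 exon per host, 200 bp or less, wider peaks and stricter overlaps. Replicates differed beyond counting noise (chi-square per degree of freedom 1.88 to 6.61).

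Named were hosts with 5 or more short exons, the 5 shortest exons, the 5 largest rises and falls among called hosts without overlap, 5 exons under both peaks nearest the gene start (ties alphabetical), the 2 largest rises and falls called in each list, and *Tpm1*, *Pkm*, *Rbfox2*, *Mapt*, *Dnmt3a*, *Kat2a* and *Mdm2*. Exons with transcript or peak features, and the remaining called regulators, were named after their values were seen. Members and lists were chosen with earlier results of these data known. Python 3.11.15, numpy 2.4.6, pandas 2.3.3, scipy 1.17.1 and matplotlib 3.10.9 were used.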

Additional observations from a re-analysis of the deposited data

Results flagged for a closer look

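Over the 51 named genes in both groups, 102 groups of 4 libraries, 1 library stood far from the other 3 in 6 groups, where chance flags about 1 group in 20. In *Gpt2*, control replicate 1 was the highest of its group at 70.5, and KD replicate 1 was the lowest of its group at 127. KD replicate 4 was the highest for *Hbs1l* at 139, KD replicate 3 the lowest for *Hdac4* at 21.0, and KD replicate 1 the highest for *Mvb12b* at 2.72. Control replicate 1 was the lowest for *Prpf31* at 86.2. In each case the groups did not overlap.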

How the results depend on the processing

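Among the 50 named genes other than *Ssrp1*, 801 results in the alternatives kept direction and call, 29 lost the call, 6 gained it and 13 turned direction. *Ssrp1* ranged from -3.20 to -3.09 with each library left out and stayed called in every setting. The hosts called higher numbered 109 to 116 and lower 19 to 22 with each library left out, 285 and 1 with spike-in scaling, and 45 and 38 with quantile normalisation. Splicing regulators called numbered 9 to 10 with a library left out and 44 with spike-in scaling. In the other settings these counts stayed within 1.5 times. Spike-in scaling turned the values of *Ccdc97* (0.14), *Kat2a* (0.26), *Mcm3ap* (0.45), *Rbfox2* (0.70), *Tpm1* (0.96) and *Ube3b* (0.25) positive, beside a median of all genes of 0.95. Quantile normalisation turned *Dock6* (-0.32) and *Trim28* (-0.075) negative and *Hyal3* (0.11) positive. Without single libraries *Dock6* ranged from -0.017 to 0.031 and *Tpm1* from -0.13 to 0.037. *Hyal3*, a called host (-1.07), stood at -0.99 without KD replicate 3. The causes were not tested.

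Replicate numbers did not pair the libraries: same-numbered control and KD libraries deviated with correlations of 0.049, 0.021, -0.050 and -0.048. With a replicate block, 113 hosts were higher and 21 lower, 10 regulators were called and *Ssrp1* was at -3.15, so no count changed. In a balanced design the block leaves each log2 fold change as it was, so only the adjusted p could move a call. Without the block all 4405 genes past the fold threshold also passed the adjusted p, so the unchanged counts cannot decide on pairing.

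The internal share was 68.7% with 1 exon per host and 84.0% at 200 bp or less. Lengths divisible by 3 made up 28.4% with 1 exon per host. Exons under a SSRP1 peak were 10.1% with peaks of at least 500 bp and 8.37% without first exons. Hosts with a SSRP1 peak were 32.8% with such peaks, 25.7% with peaks of both subunits and 48.3% with a peak over the gene itself. The median chromatin RNA of hosts was 5.57 CPM over both libraries, 3.78 to 7.37 with 1 left out, and 1.83 per kb of exon length. Depth limits low genes most in the control libraries, and the peak lists give no depth.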
